A study of Mus musculus with 9 samples.

Results

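The enzymes that make and break down fructose 2,6-bisphosphate are encoded by 4 genes, Pfkfb1, Pfkfb2, Pfkfb3 and Pfkfb4, and all 4 were found by symbol among the 54532 genes of the deposited table. The family was picked on these data, because Pfkfb3 was lower with rhWnt3a while glycolytic enzymes were higher. The values of rhWnt3a against vehicle are therefore given as a description without a test, and so is Pfkfb3 wherever vehicle is the reference. RNA came from ST2, a single mouse line of bone marrow stromal cells labelled wild type, which can be turned towards osteoblasts. Cells were kept for 72 h with vehicle, with recombinant human Wnt3a (rhWnt3a, 50 ng/ml), or with rhWnt3a and 20 µM OSMI, an inhibitor of the O-GlcNAc transferase OGT, with 3 libraries in each group. The titles and the study's account of its results place rhWnt3a in the third group, while its treatment label and a sentence of the Methods name OSMI alone. Levels of Wnt target genes in that group are given with the lists of cell states. No group was titled as OSMI without rhWnt3a, so the effect of the inhibitor in cells without rhWnt3a was not measured.

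Fructose 2,6-bisphosphate is the strongest known activator of phosphofructokinase 1, the enzyme that commits glucose carbon to glycolysis, and it restrains the opposing fructose bisphosphatase. Each PFKFB protein carries a kinase that makes this signal and a phosphatase that removes it, and the isoforms differ in the balance of both activities and in the kinases that act on them. PFKFB3 leans strongly towards the kinase and is the form known from dividing and stimulated cells, PFKFB2 is known from heart, PFKFB1 from liver and muscle, and PFKFB4 from testis and oxygen-poor cells. RNA levels say nothing of protein amount, of phosphorylation or of the metabolite. By Western blot, the study reports more PFKFB3 protein in ST2 cells given rhWnt3a, and less of it when OSMI was added. The rhWnt3a treatment before those blots was shorter than that before the RNA was taken. Pfkfb3 RNA, described below, was lower with rhWnt3a than in vehicle, opposite to the reported protein. The reason for this difference was not tested.

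Total counts ran from 16135898 to 17583945 per library, and 14004 genes passed the filter on low counts. Calls were made from a two-sided edgeR quasi-likelihood test on all 9 libraries, at p under 0.05 after Benjamini-Hochberg adjustment and with a log2 fold change above 0.5 or below -0.5. Counts given at an unadjusted p keep this fold threshold. The legend of the study's heatmap calls the 3 libraries of a group biological replicates, while the labels do not say whether they came from separate cultures. The p-values measure the spread between these libraries. Vehicle replicate 3, rhWnt3a replicate 2 and replicate 3 of rhWnt3a with OSMI each stood apart from the other pair of their group across genes, with mean squared log2 differences of 0.373 to 0.454 against 0.111 to 0.119 within the pairs. Values without these 3 libraries, a choice made after seeing the data, are given beside the results that rest on them. Collagen genes of stromal cells were abundant, with Col1a1 at 10055 CPM in vehicle (counts scaled to a common library size) and 2707 to 6281 with rhWnt3a plus OSMI. In vehicle 9 of 10 stromal markers exceeded 1 CPM on average, while Thy1 had 0, 0 and 1 counts. The blood marker Ptprc had 0 to 2 counts per library and the epithelial marker Epcam 0 or 1. Of 12 blood, endothelial and epithelial markers, 10 had at most 3 counts in each vehicle library, while Lyz2 had 90, 103 and 160. In bulk RNA, fewer cells of a type and less RNA per cell cannot be told apart.

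Pfkfb3 was the most abundant member in vehicle and, like Pfkfb1, was lower in every treated library than in any vehicle library. This separation is a description, since Pfkfb3 was picked on it and Pfkfb1 passed the filter only through its vehicle libraries. Of all tested genes, 26.4% had libraries that did not overlap between rhWnt3a and vehicle. Between rhWnt3a with OSMI and vehicle the share was 38.8%. Its gene lies on chr2:11471433-11554077 of GRCm38, on the minus strand. In vehicle it had 688, 631 and 576 counts in replicates 1 to 3. With rhWnt3a the counts were 381, 244 and 355. With rhWnt3a and OSMI they were 236, 208 and 285. Every vehicle library stood above all 6 treated libraries, while the treated groups overlapped. In CPM, rhWnt3a replicate 2 (13.9) lay below replicates 1 (14.3) and 3 (16.6) of rhWnt3a with OSMI. Of these, rhWnt3a replicate 2 and OSMI replicate 3 were libraries that stood apart, and OSMI replicate 1 was not. On a scale that allows genes to be compared, CPM divided by the gene length in kilobases, the mean level was 5.06 ± 0.663 in vehicle, 2.57 ± 0.649 with rhWnt3a and 1.89 ± 0.309 with rhWnt3a plus OSMI (SD, n = 3 each).

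The level of Pfkfb3 was 1.97-fold lower with rhWnt3a than in vehicle (log2 fold change -0.98, SE 0.210) and 2.68-fold lower with rhWnt3a plus OSMI (-1.42, SE 0.211). Without the 3 libraries that stood apart, these log2 fold changes were -0.92 and -1.69. The first was the value on which the family was picked, and the second shares its vehicle libraries. Adding OSMI to rhWnt3a gave a log2 fold change of -0.44 (SE 0.213, 95% interval -0.92 to 0.03), which did not pass the edgeR quasi-likelihood test (adjusted p = 0.248). This comparison shares its 3 rhWnt3a libraries with the one used for the choice. Without the 3 libraries that stood apart the change was -0.77, with an edgeR adjusted p of 4.66e-05. Those libraries were left out after seeing the data, which makes the spread within groups smaller by construction. That p therefore cannot decide whether the change is real. Over all 20 alternatives the change ran from -0.77 to -0.28, with adjusted p from 4.66e-05 to 0.491. Leaving out any single library left it without a call.

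Pfkfb2 had its highest mean in the third group and passed no test. This gene, on chr1:130689182-130729253 (minus strand), had 213, 193 and 143 counts in vehicle, 240, 190 and 264 with rhWnt3a, and 240, 268 and 311 with rhWnt3a plus OSMI. The libraries of rhWnt3a plus OSMI all stood above vehicle in CPM, while the rhWnt3a libraries overlapped both other groups. Mean levels in CPM per kilobase were 1.53 ± 0.367, 1.89 ± 0.359 and 2.21 ± 0.260 in the same order (SD, n = 3 each). Against vehicle, rhWnt3a with OSMI gave a log2 fold change of 0.53 (SE 0.216, 95% interval 0.04 to 1.01), with an edgeR p of 0.0360 that did not hold after adjustment (adjusted p = 0.134). This difference was 0.34 without vehicle replicate 3 and 0.20 without the 3 libraries that stood apart. OSMI added to rhWnt3a gave 0.22 (SE 0.215, adjusted p = 0.554 by edgeR), and -0.03 without the libraries that stood apart. The change with rhWnt3a alone was 0.30 (SE 0.217), given as a description.

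Pfkfb4 had nearly the same level in the 3 groups. Its counts, from a gene on chr9:108991778-109032228 (plus strand), were 109, 132 and 102 in vehicle, 108, 94 and 109 with rhWnt3a, and 113, 122 and 118 with rhWnt3a plus OSMI. Levels in CPM per kilobase were 1.42 ± 0.276, 1.26 ± 0.142 and 1.42 ± 0.0180 (SD, n = 3 each). Vehicle overlapped both treated groups. Its replicate 2 had the highest level of all 9 libraries, and rhWnt3a replicate 2 the lowest. The rhWnt3a plus OSMI libraries all stood above those of rhWnt3a, by a log2 fold change of 0.17 (SE 0.187, 95% interval -0.25 to 0.59, edgeR adjusted p = 0.606). Against vehicle the change was -0.01 (95% interval -0.42 to 0.41, edgeR adjusted p = 0.984), and with rhWnt3a alone it was -0.18 (SE 0.187).

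Pfkfb1 was close to the limit of detection. The gene on chrX:150588229-150643878 (plus strand) had 14, 19 and 20 counts in vehicle, 13, 9 and 9 with rhWnt3a, and 11, 7 and 7 with rhWnt3a plus OSMI. It passed the filter on low counts only through the vehicle libraries. Its level in CPM per kilobase was 0.265 ± 0.0464 in vehicle, 0.153 ± 0.0383 with rhWnt3a and 0.122 ± 0.0374 with rhWnt3a plus OSMI (SD, n = 3 each). All vehicle libraries stood above the treated ones, which overlapped each other. The log2 fold change was -1.11 (SE 0.377, edgeR adjusted p = 0.0736) for rhWnt3a with OSMI against vehicle and -0.32 (SE 0.396, adjusted p = 0.646) against rhWnt3a, both short of a call, and the first is conditioned on a high vehicle level through the filter. With rhWnt3a against vehicle it was -0.79 (SE 0.365). At such counts the counting error alone was 23.8% of the value of a vehicle library, which limits the differences that could be detected.

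**Figure D1:**
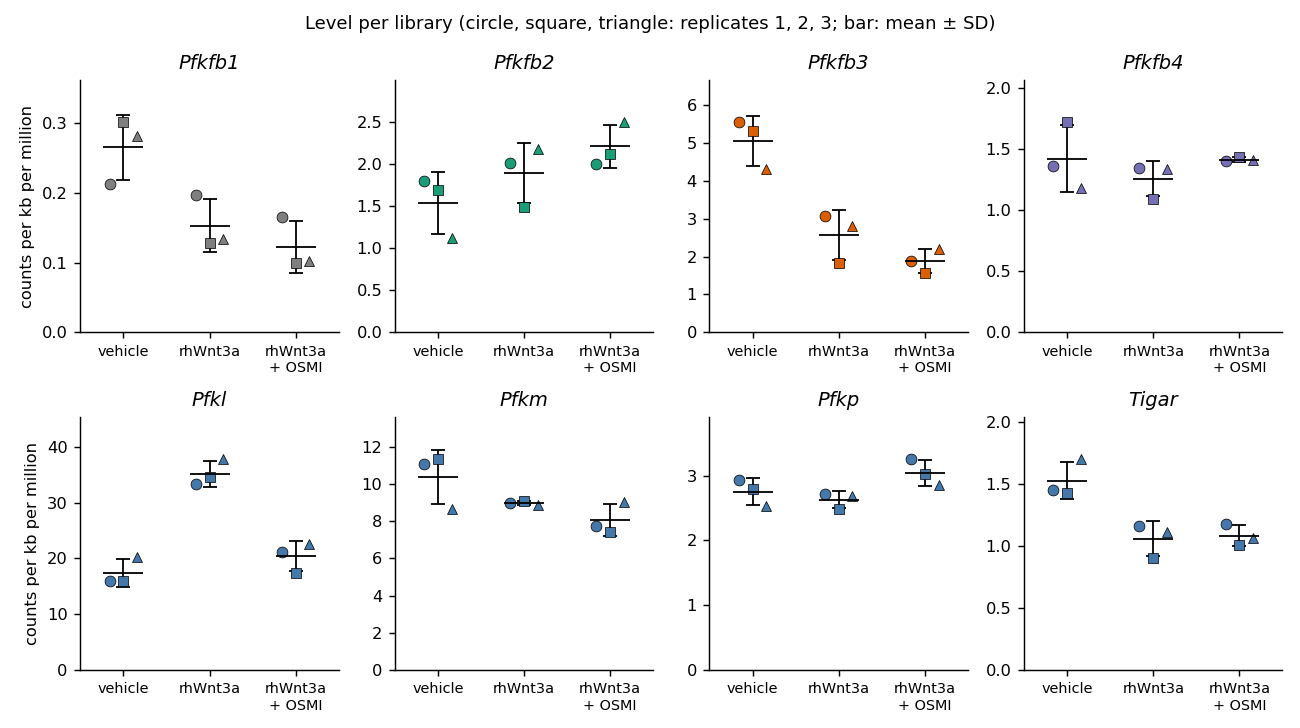
Level of the 4 Pfkfb genes (top) and of Pfkl, Pfkm, Pfkp and Tigar (bottom) in CPM per kilobase of gene length (y axis), by group on the x axis, with a point for each library and bars for mean and SD (n = 3). Pfkfb3 sat at 5.06 in vehicle and 1.89 with rhWnt3a plus OSMI, while Pfkl was highest with rhWnt3a alone.

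For the members tested in rhWnt3a with OSMI against rhWnt3a, no gene of the 4 was called by edgeR, none at an unadjusted p under 0.05 and none by DESeq2, where 1.69% of all tested genes were called higher and 3.05% lower. The libraries of these groups did not overlap for Pfkfb4, against 33.7% of all tested genes. In rhWnt3a with OSMI against vehicle, neither Pfkfb2 nor Pfkfb4 was called by edgeR or DESeq2, Pfkfb2 passed an unadjusted p of 0.05, and 4.84% of all genes were called higher and 9.34% lower. The libraries did not overlap for Pfkfb2, as for 38.8% of all genes. Pfkfb1 is not counted here, since only its vehicle level brought it past the filter. In rhWnt3a against vehicle 2.92% of genes were called higher, 5.86% lower, and 26.4% had libraries that did not overlap. The members are not counted against these shares, because the choice of the family had used that comparison.

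**Figure D2:**
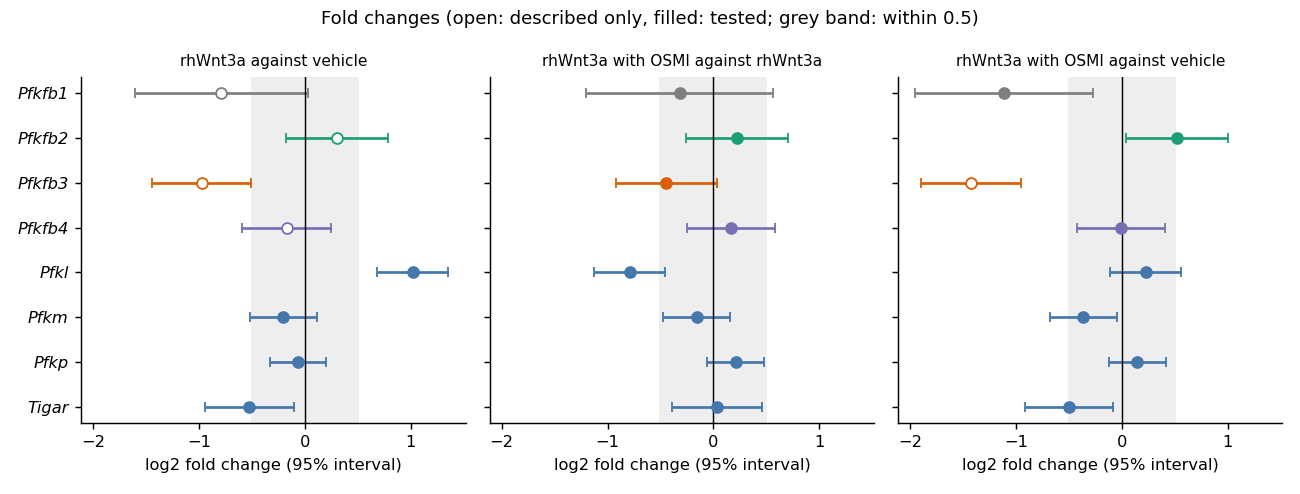
Log2 fold change on the x axis with 95% interval for each Pfkfb gene and for Pfkl, Pfkm, Pfkp and Tigar in the 3 comparisons. Points are open for Pfkfb values that are described only and filled for all others, with a grey band for changes within 0.5. The filled points of Pfkl with rhWnt3a against vehicle, and of Pfkfb1 with rhWnt3a plus OSMI against vehicle, are not fair tests. The interval of Pfkfb3 for OSMI added to rhWnt3a ran from -0.92 to 0.03, whereas that of Pfkl lay below 0.

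The order of the isoforms differed between the groups. The difference in shares between vehicle and rhWnt3a contains the Pfkfb3 values used for the choice and is a description. Pfkfb3 held 62.2%, 58.8% and 62.5% of the summed level per kilobase of the 4 genes in the vehicle libraries, 46.3%, 40.3% and 43.5% with rhWnt3a, and 34.6%, 30.2% and 35.4% with rhWnt3a plus OSMI. Pfkfb2 held a mean of 18.3% ± 1.98, 32.3% ± 1.71 and 39.1% ± 2.14 (SD, n = 3 each). Pfkfb2 was thus below Pfkfb3 in all vehicle and rhWnt3a libraries and above it in all 3 libraries of rhWnt3a with OSMI, where the log2 ratio of Pfkfb3 to Pfkfb2 was -0.43 to -0.08. The mean of this ratio there was -0.23 ± 0.175 (SD, n = 3). The overlap of Pfkfb2 with Yod1, described with the neighbouring genes, limits its level and so its order against Pfkfb3.

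Pfkfb4 held 17.2% ± 1.90, 21.7% ± 2.07 and 25.3% ± 2.38 of the family's level, and Pfkfb1 between 1.64% and 4.09% in any library. Pfkfb2 and Pfkfb4 did not differ beyond their spread in vehicle. Between rhWnt3a with OSMI and rhWnt3a the share of Pfkfb3 differed by -10.0 percentage points, without overlap between the libraries (two-sided exact permutation p = 0.1, the smallest that 3 against 3 libraries can give). Such shares are ratios within a library, and they do not depend on library scaling. The summed level of the family was 8.29 ± 1.21 in vehicle, 5.88 ± 1.15 with rhWnt3a and 5.63 ± 0.510 with rhWnt3a plus OSMI.

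**Figure D3:**
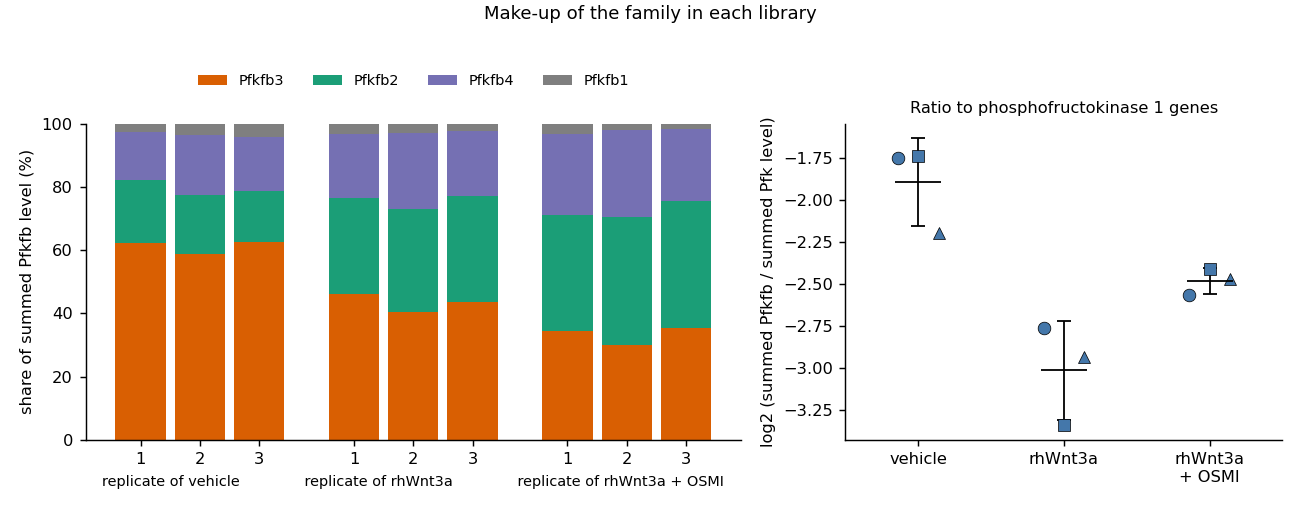
Left, share of each Pfkfb gene in the summed level per kilobase of the 4 genes (y axis, percent), with 1 bar for each library. Right, log2 ratio of the summed Pfkfb level to the summed Pfkl, Pfkm and Pfkp level, with points for libraries and bars for mean and SD (n = 3). The part of Pfkfb3 went from 61.2% in vehicle to 43.4% and 33.4% in the treated groups, and the ratio was lowest with rhWnt3a. In both panels the difference between vehicle and rhWnt3a contains values used for the choice.

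Phosphofructokinase 1, which fructose 2,6-bisphosphate activates, is built from the subunits of Pfkl, Pfkm and Pfkp. Pfkl had 1736, 1676 and 2396 counts in vehicle, 3655, 4060 and 4222 with rhWnt3a, and 2345, 2024 and 2579 with rhWnt3a plus OSMI. All rhWnt3a libraries stood above the other 6, and the other groups overlapped. The log2 fold change of Pfkl was 1.02 (SE 0.150) with rhWnt3a, and it fell by 0.79 when OSMI was added (SE 0.150, edgeR adjusted p = 0.0192). Both values use the rhWnt3a libraries in which high glycolytic enzymes were part of the choice, so neither is independent of it. Pfkm and Pfkp were not called in any comparison of the 9 libraries, with log2 fold changes from -0.36 to 0.21. In CPM per kilobase the vehicle level was 17.4 ± 2.52 for Pfkl, 10.4 ± 1.47 for Pfkm and 2.75 ± 0.208 for Pfkp (SD, n = 3 each).

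The mean ratio of Pfkfb to phosphofructokinase 1 levels was lowest with rhWnt3a, which restates values used for the choice. The log2 ratio of the summed Pfkfb level to the summed level of Pfkl, Pfkm and Pfkp was -1.89 ± 0.261 in vehicle, -3.01 ± 0.297 with rhWnt3a and -2.48 ± 0.0762 with rhWnt3a plus OSMI (SD, n = 3 each). The libraries with OSMI and those of rhWnt3a alone did not overlap, and their means differed by 0.53 (two-sided exact permutation p = 0.1, the smallest possible here). This test and that of the Pfkfb3 share draw on the same rhWnt3a libraries as the choice, and so are not independent of it. For the ratio, the choice favoured a low value with rhWnt3a and so a rise from it. From rhWnt3a to rhWnt3a with OSMI the mean summed Pfkfb level went from 5.88 to 5.63 CPM per kilobase. The mean of Pfkl went from 35.2 to 20.4 on the same scale. Pfkfb3 and Pfkl, the leading members of their families in vehicle, had opposite signs with rhWnt3a. When OSMI was added Pfkl fell, and Pfkfb3 did not pass the test. The log2 ratio of Pfkfb3 to Pfkl was -1.78 ± 0.397, -3.81 ± 0.400 and -3.44 ± 0.0708.

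Of the enzymes that oppose the signal, only Tigar was measured above a few counts. Its vehicle level was 1.53 ± 0.151 CPM per kilobase (SD, n = 3), close to those of Pfkfb2 and Pfkfb4. Tigar, which removes phosphate from fructose bisphosphates, had 87, 82 and 110 counts in vehicle, 70, 58 and 68 with rhWnt3a, and 71, 64 and 67 with rhWnt3a plus OSMI. Its vehicle libraries stood above all treated ones, which overlapped each other. The log2 fold change was -0.53 (SE 0.189) with rhWnt3a and -0.50 (SE 0.188) with rhWnt3a plus OSMI against vehicle (edgeR adjusted p = 0.107), without a call in either. The gluconeogenic phosphatases Fbp1 and Fbp2, which fructose 2,6-bisphosphate inhibits, had 0 to 2 counts in every library and were not tested. At this depth 3 counts made 0.170 to 0.191 CPM.

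Of the other glycolytic enzymes, 20 of 25 listed genes were tested. With rhWnt3a, 4 were called higher and 1 lower, where 2.92% of all tested genes were called higher and 5.86% lower. The median log2 fold change was 0.50 against 0.04 over all tested genes. This rise was part of the reason for the choice, so the calls with rhWnt3a are a description and not a test. The largest were Pfkl (1.02), the glucose phosphate isomerase Gpi1 (from 318 to 635 CPM) and the phosphoglycerate kinase Pgk1 (0.94, SE 0.212), while the aldolase Aldoc went from 18, 11 and 26 counts to 0, 1 and 0, at least 6.14-fold lower against a floor of 3 counts per library. When OSMI was added, the 5 called genes all fell, and the median was -0.53 against -0.01. Without Aldoc, which is at or near 0 in both groups, that median was -0.55 over 19 genes. The reference here is the same rhWnt3a libraries, in which high glycolytic enzymes were part of the choice. That choice favours falls from them, so the p-values of falls given below are not independent of it.

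Among called genes the falls with OSMI were largest for Pgk1, by 1.40 on the log2 scale (SE 0.212, adjusted p = 0.00826 by edgeR), the lactate dehydrogenase subunit Ldha, by 1.26 (SE 0.245, adjusted p = 0.0219), the triosephosphate isomerase Tpi1, by 1.16 (SE 0.266, adjusted p = 0.0408), and Pfkl. Against vehicle, rhWnt3a with OSMI had 1 enzyme higher, the hexokinase Hk2 (0.53, SE 0.155), and 3 lower, Ldhb (-1.07, SE 0.216), Eno3 (-0.98, SE 0.207) and Aldoc (0, 4 and 0 counts). Without the libraries that stood apart, the counts called higher and lower were 9 and 2 with rhWnt3a, 0 and 8 for OSMI added, and 2 and 6 against vehicle. Within the rhWnt3a group, replicate 2 held both the lowest Pfkfb3 count, 244, and the highest Ldha and Pgk1 counts, 17220 and 16718.

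**Figure D4:**
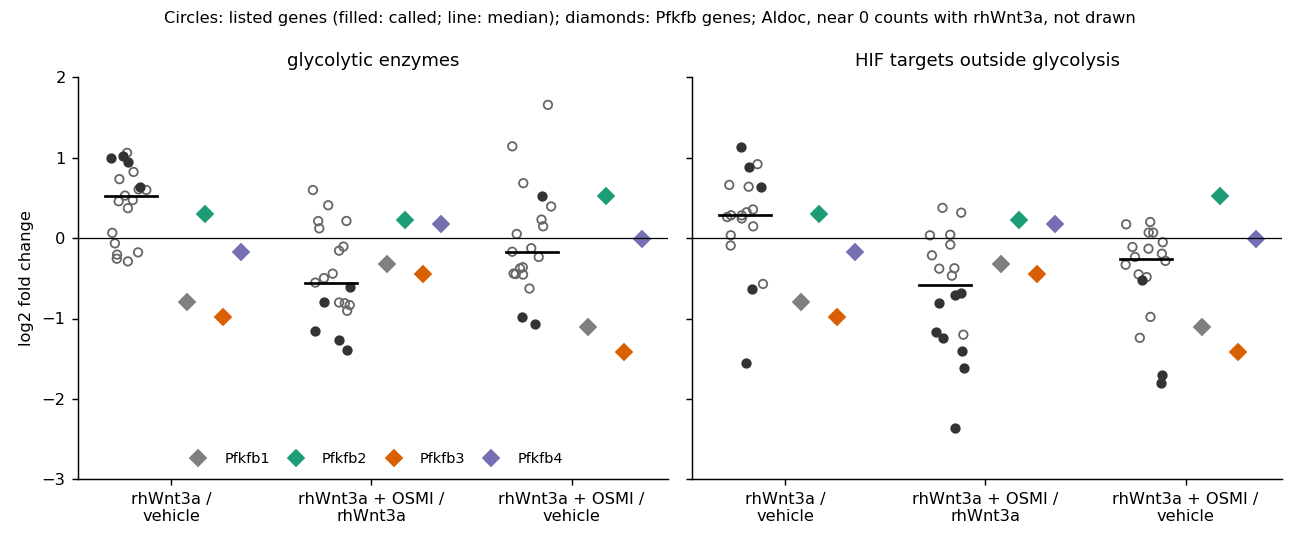
Log2 fold changes in the 3 comparisons of 19 glycolytic enzymes (left) and 18 targets of hypoxia-inducible factor outside glycolysis (right), as circles that are filled where the gene was called, with a line at the median, beside the 4 Pfkfb genes as diamonds. Aldoc, at or near 0 counts with rhWnt3a, is not drawn, and Pfkfb3 lies below the median of both lists at rhWnt3a against vehicle and close to it when OSMI was added.

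The pentose phosphate pathway takes glucose 6-phosphate away from glycolysis. Of its 9 enzymes, all tested, none was called by edgeR or DESeq2 with rhWnt3a or when OSMI was added, while 2 and 1 passed at an unadjusted p. Against vehicle, rhWnt3a with OSMI had Pgd, the phosphogluconate dehydrogenase, higher by 1.16 (SE 0.220, edgeR adjusted p = 0.00699) and the transketolase Tkt lower (-0.53, SE 0.109, adjusted p = 0.0103 by edgeR). The median of the 9 was -0.27 there.

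Several kinases set the activity of PFKFB proteins, among them AMPK, protein kinase A, AKT and RSK. Of 17 tested genes of these kinases and of the phosphatase PP2A, 2 were called lower with rhWnt3a and none higher. Sgk1, a kinase induced by serum and glucocorticoid, had 5000, 5517 and 7224 counts in vehicle, 1928, 2785 and 1932 with rhWnt3a, and 2667, 3106 and 2242 with rhWnt3a plus OSMI, so that vehicle stood above all treated libraries. Its log2 fold change was -1.45 (SE 0.182) with rhWnt3a and -1.18 (SE 0.182, edgeR adjusted p = 0.00234) with rhWnt3a plus OSMI against vehicle. Akt2 was the other, at -0.54 (SE 0.121) with rhWnt3a. No gene of this list was called by edgeR or DESeq2 when OSMI was added, none at an unadjusted p, and 1 was called higher without the libraries that stood apart.

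PFKFB3 protein is known to be removed through the ubiquitin ligases APC/C, with its activator Cdh1 encoded by Fzr1, and SCF, with the adaptor encoded by Btrc. Neither gene was called, with log2 fold changes of 0.07 to 0.18 for Fzr1 and -0.03 to 0.13 for Btrc in the 3 comparisons. In the same list of 11 genes stand the enzymes of the O-GlcNAc cycle, which the inhibitor addresses. Ogt, the gene of the inhibited enzyme, had 7526, 7857 and 6367 counts in vehicle, 11123, 9052 and 10355 with rhWnt3a, and 10340, 11629 and 13091 with rhWnt3a plus OSMI. Oga, the enzyme that removes the sugar (listed as Mgea5), had 1882, 2049 and 2989, then 2932, 3071 and 2895, then 4315, 4258 and 4639 counts.

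Both were called higher in rhWnt3a with OSMI against vehicle, Oga by 0.90 (SE 0.151, edgeR adjusted p = 0.00356) and Ogt by 0.64 (SE 0.173, edgeR adjusted p = 0.0348), as the only genes of the 11. No gene of the list was called by edgeR with rhWnt3a, at an unadjusted p or by DESeq2, and none when OSMI was added, where 1 passed at an unadjusted p and by DESeq2. There the changes were 0.18 (SE 0.173, edgeR adjusted p = 0.544) for Ogt and 0.56 (SE 0.151, edgeR adjusted p = 0.0661) for Oga. An inhibitor of the enzyme need not change the RNA of its gene, so these counts do not check the labels of the third group.

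Pfkfb3 and Pfkfb4 are known targets of hypoxia-inducible factor (HIF), and the promoters are shown for the short letters ACGTG at the core of its binding element. RefSeq (GRCm38.p6) gave windows of 250 bases before 10 start sites, 4 for Pfkfb1, 3 for Pfkfb2, 2 for Pfkfb3 and 1 for Pfkfb4. Capitals mark ACGTG or, in Pfkfb4, the letters CTTTGA of the core bound by TCF and LEF factors, on either strand. Bases inside annotated exons were left out except around the match of the first Pfkfb3 start.
Pfkfb3, first start, chr2:11553973-11554001, minus strand: ctccgcgccgtgACGTGccaagctgtgac
Pfkfb3, second start, chr2:11502102-11502340, minus strand: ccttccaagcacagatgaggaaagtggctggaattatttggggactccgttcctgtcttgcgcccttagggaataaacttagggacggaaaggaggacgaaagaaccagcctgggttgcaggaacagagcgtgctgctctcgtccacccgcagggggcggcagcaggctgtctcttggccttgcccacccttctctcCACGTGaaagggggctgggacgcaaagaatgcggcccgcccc
Pfkfb2, first start, chr1:130715822-130716071, minus strand: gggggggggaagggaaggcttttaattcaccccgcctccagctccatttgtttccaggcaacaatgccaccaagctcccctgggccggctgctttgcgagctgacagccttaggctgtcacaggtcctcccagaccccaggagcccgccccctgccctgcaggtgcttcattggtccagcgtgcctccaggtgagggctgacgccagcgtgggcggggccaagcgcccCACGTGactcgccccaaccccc
Pfkfb4, chr9:108991652-108991777, plus strand: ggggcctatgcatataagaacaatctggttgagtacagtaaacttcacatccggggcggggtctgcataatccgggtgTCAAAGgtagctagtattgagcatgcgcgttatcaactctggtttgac

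ACGTG was found in both windows of Pfkfb3, at position -60 from the first start and within CACGTG at -53 from the second, and in windows 1 and 3 of Pfkfb2. It was not found in the window of Pfkfb4 or in those of Pfkfb1. Of 32851 promoter windows of the same length, 16.57% held ACGTG and 6.021% CACGTG, which contains ACGTG on both strands. CTTTGA was found in Pfkfb4, at -172, and in the fourth window of Pfkfb1, against 13.83% of all windows. The first Pfkfb3 match lies in the annotated first exon. A match of letters is a description and not a bound site, and which start sites these cells used was not tested.

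The genes of the HIF system were measured beside these promoters. Hif1a, the oxygen-regulated subunit, had 10806, 10189 and 12743 counts in vehicle, 15636, 17628 and 15178 with rhWnt3a, and 10206, 11887 and 13330 with rhWnt3a plus OSMI. All rhWnt3a libraries stood above the others, but the change when OSMI was added, -0.46 (SE 0.141), had an edgeR adjusted p of 0.0945 and no call. Epas1, the other oxygen-regulated subunit, had 0 to 7 counts per library and was not tested. Of 9 tested genes of subunits and oxygen-sensing hydroxylases, rhWnt3a had Egln1 higher (0.64, SE 0.167) and Hif3a lower (-2.86, SE 0.598), and OSMI added had Egln3 lower (-1.62, SE 0.346, edgeR adjusted p = 0.0283). Against vehicle, rhWnt3a with OSMI had the HIF hydroxylase gene Hif1an higher (0.61, SE 0.171, edgeR adjusted p = 0.0387) and Hif3a lower (-3.41, SE 0.638, edgeR adjusted p = 0.00562).

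Of 18 tested HIF targets outside glycolysis, 3 were called higher and 2 lower with rhWnt3a, with a median of 0.28 against 0.04 over all genes. The largest were Car9, a carbonic anhydrase (-1.56, SE 0.392), Pdk1, which holds pyruvate back from mitochondria (1.14, SE 0.131), the mitophagy gene Bnip3 (0.89, SE 0.151) and Mxi1 (0.64, SE 0.132). When OSMI was added, the 8 called genes all fell and the median of the 18 was -0.58, and without the libraries that stood apart 9 fell. Ankrd37 fell by 2.36 on the log2 scale (SE 0.381), Egln3 by 1.62, Bnip3 by 1.40 (SE 0.152) and Pdk1 by 1.25 (SE 0.131), with edgeR adjusted p from 0.00171 to 0.0283.

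Against vehicle, rhWnt3a with OSMI had 3 HIF targets lower, Plod2 (-1.80, SE 0.119), Ankrd37 (-1.70, SE 0.391) and Bnip3 (-0.52, SE 0.153), and none higher. Pfkfb3 was thus lower with rhWnt3a where the median HIF target was higher, and Pfkfb4 had log2 fold changes between -0.18 and 0.17 throughout. Beside Pfkfb3, Car9 and Plod2 were lower with rhWnt3a. Whether HIF activity changed in these cells was not measured.

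Markers of other cell fates also differed between the groups. Of 8 tested chondrocyte markers 7 were called lower with rhWnt3a and the same number against vehicle with rhWnt3a plus OSMI. When OSMI was added none was called, while 1 passed at an unadjusted p and by DESeq2. Their summed level was 3163 to 4520 CPM in vehicle, 751 to 862 with rhWnt3a and 531 to 1275 with rhWnt3a plus OSMI. Most of each sum was the collagen Col11a1, at 2721 to 3935, 647 to 734 and 442 to 1136 CPM in the same order. The cartilage collagen Col2a1 had 2217 to 2927 counts in vehicle and 160 to 273 in the treated libraries. Of 7 tested adipocyte markers 4 were called lower and 1 higher with rhWnt3a. When OSMI was added 1 was called higher and 1 lower, with a median log2 fold change of 0.16. The sum of the 12 listed was 216 to 319 CPM in vehicle, 83.9 to 94.2 with rhWnt3a and 91.2 to 108 with rhWnt3a plus OSMI. Plin4 alone was at 126 to 246, 27.2 to 42.5 and 39.2 to 54.8 CPM in the same order. Cebpa was at 21.4 to 31.3 CPM in vehicle and 22.1 to 30.8 with rhWnt3a. The fat-cell hormone gene Adipoq was at 0 in all vehicle and rhWnt3a libraries and at 0, 0 and 3 counts with rhWnt3a plus OSMI. The part of these cell states in the level of Pfkfb3 was not tested.

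Further lists describe the state of the cells. Of 9 tested targets of Wnt and β-catenin, 5 were called higher with rhWnt3a and 1 fell when OSMI was added. Against vehicle, rhWnt3a with OSMI had 3 called higher, with a median of 0.93. Axin2, a feedback inhibitor of the pathway, had 4, 14 and 10 counts in vehicle, 355, 296 and 315 with rhWnt3a, and 203, 185 and 297 with rhWnt3a plus OSMI, so that all treated libraries stood above vehicle. Cell-division genes, of which 20 were tested, had 10 called lower with rhWnt3a and 11 higher when OSMI was added, and between rhWnt3a with OSMI and vehicle none was called by edgeR or DESeq2, 1 at an unadjusted p, and 9 without the libraries that stood apart. Of 4 tested osteoblast markers, none was called with rhWnt3a (none at an unadjusted p or by DESeq2) or when OSMI was added (2 and 1), and 2 were lower against vehicle with rhWnt3a plus OSMI. Of 9 tested stromal markers 2, 3 and 5 were lower in rhWnt3a against vehicle, OSMI added to rhWnt3a, and rhWnt3a with OSMI against vehicle. Of 12 blood, endothelial and epithelial markers only Lyz2 was tested, lower in the last comparison (-1.65, SE 0.457, edgeR adjusted p = 0.0382). With rhWnt3a against vehicle it was at -1.66 (SE 0.457, edgeR adjusted p = 0.0533), called by DESeq2 but not by edgeR.

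The genes whose log2 CPM over the 9 libraries was most like that of Pfkfb3 were Tnc (r = 0.988), Rnf144a (r = 0.988), Ccdc136 (r = 0.988), Tox (r = 0.981) and Itga6 (r = 0.978), out of 10743 genes searched. Tnc, an extracellular matrix protein, had mean levels of 12.5, 2.79 and 1.95 CPM in vehicle, rhWnt3a and rhWnt3a with OSMI, and Itga6, a laminin receptor subunit, had 6.64, 2.62 and 2.12 CPM. Pfkfb2 was most like Zfp445 (r = 0.991), Iqce (r = 0.990) and Rere (r = 0.987), with Rere at 198, 265 and 354 CPM. Pfkfb4 was most like Mtbp (r = 0.969), Zfp939 (r = 0.928) and Pisd-ps1 (r = 0.902), and Pfkfb1 was most like N4bp2l1 (r = 0.962), Tmem151a (r = 0.935) and Fes (r = 0.934). These Pearson correlations describe libraries that share groups, depth and the split within groups, and they carry no test.

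Neighbouring genes limit what some of these counts can carry. The antisense gene Yod1 shares 7032 bases with the span of Pfkfb2 and had 209 to 273 counts, a similar number to Pfkfb2 itself, and Apex2 shares 1640 bases with Pfkfb1 and had 141 to 187 counts, many more than Pfkfb1. Where counting ignores strand, reads from such shared bases cannot be assigned. Transcripts of Yod1 and Gm29427 matched Pfkfb2 transcripts at 97% identity or more, over up to 1197 bases, while no other gene matched Pfkfb1, Pfkfb3 or Pfkfb4. The genes overlapping Pfkfb3, Gm10851 and Gm37975, had at most 6 counts.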

How the data were processed

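Poly-A RNA of ST2 cells was sequenced in 9 libraries, 3 per group. The submitters' processing notes name CASAVA, fastp, HISAT2 2.0.5, featureCounts 1.5.0-p3 and mm10. The annotation and the strand setting are not given in the sources used here. The authors deposited raw read counts per gene, which were used for all tests. The FPKM values that the authors deposited are counts per length and library total, and served for alternatives. Deposited columns of the authors' DESeq2 comparisons (group means, log2 fold changes, p-values and adjusted p-values) were not used.

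Counts were filtered by filterByExpr (minimum count 10, total 15), scaled by TMM and fitted with glmQLFit of edgeR 4.0.16 in R 4.3.3 on 3 groups. Pairs of groups were compared by glmQLFTest with Benjamini-Hochberg adjustment over 14004 genes. The fit was tested on simulated data. The common dispersion was 0.0452. Levels are TMM-scaled counts per kilobase of deposited gene length. Log2 CPM used a prior count of 2. Ratios were compared by exact permutation tests. limma 3.58.1 and DESeq2 1.42.0 served for alternatives, and BLAST 2.17.0 for near-identical transcripts of GENCODE M21.

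The members and gene lists were chosen with earlier results of these data known. Named were all 4 members, the phosphofructokinase 1 genes, Fbp1, Fbp2 and Tigar. From other lists at most 4 called genes per comparison were named, the largest by fold, and Ogt, Oga, Hif1a, Epas1, Fzr1 and Btrc whatever their values. For likeness, the 5 genes (3 for members other than Pfkfb3) with the highest correlation were named, among genes whose average log2 CPM exceeded 1, without Gm and Rik symbols. Ptprc, Epcam, Col2a1, Adipoq, Lyz2 and the neighbouring genes were chosen with values already known. Oga, Ero1a and Skp1 were found by older symbols. No pair of libraries within a group agreed within counting noise, so all were counted as separate libraries. This does not show that they came from separate cultures.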

Additional observations from a re-analysis of the deposited data

How the results depend on the processing

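Under the alternatives that keep the adjusted p, no tested member gained or lost a call except Pfkfb3 for OSMI added to rhWnt3a, which was called without the 3 libraries that stood apart (-0.77), where the spread within groups is smaller by construction. There Pfkfb2 reversed to -0.028. At unadjusted p, Pfkfb2 passed in rhWnt3a with OSMI against vehicle. Pfkfb1 did so too, but only its vehicle level brought it past the filter, so its p there is not a fair test. Pfkfb4 against vehicle, near 0, reversed to 0.0062 with at least 10 counts in every library, 0.035 with the 6 libraries compared, and 0.0026 with limma on log2(FPKM + 0.1), and ran from -0.12 to 0.19 when a library was left out (0.19 without vehicle replicate 2). For Pfkfb1 the filter of 10 counts in every library gave no value. The shares and ratios kept their direction in all 9 alternatives each, with the share of Pfkfb3 differing by -11.5 to -8.38 points and the log2 ratio to phosphofructokinase 1 by 0.37 to 0.66. The number of genes called, the background for the members, moved more. For rhWnt3a against vehicle 1230 genes became 809 with the replicate block, 716 to 1506 without a library, 2557 without the 3 libraries that stood apart and 2155 at unadjusted p. For OSMI added, 664 became 1481 without a filter, 1244 with DESeq2 on 9 libraries, 1021 with DESeq2 and 345 with edgeR on the 6 compared, 233 with the block, 203 to 764 without a library, 1789 without the 3 and 2271 unadjusted. For rhWnt3a with OSMI against vehicle, 1986 became 1297 with the block, 1218 to 2328 without a library, 3351 without the 3 and 3186 unadjusted. The cause of these differences was not tested. Replicate numbers did not pair the libraries, whose deviations correlated at -0.18, 0.13 and -0.31 on average in these comparisons, and the replicate block changed no call of a member. With the block, Pfkfb3 for OSMI added was -0.43 (edgeR adjusted p = 0.325). In a paired design of 3 the exact p of the share and of the ratio was 0.25, the smallest possible. Depth limits Pfkfb1 most, at 7 to 20 counts.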
